A study of Drosophila melanogaster with 19 samples.

Results

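Arrays labelled UAS-Ac (Achaete) and UAS-Ase (Asense) were compared in the pupal notum of Drosophila melanogaster, the dorsal thorax on which mechanosensory bristles form. The comparison takes 5 of the 19 arrays of the series, 2 labelled UAS-Ac and 3 labelled UAS-Ase, chosen by their titles alone, and runs over all 18769 probe sets of the array. Ac and Ase below name the arrays by these labels. Neither label was borne out by the probe set of its own gene: achaete was not raised on the UAS-Ac arrays, where scute was high instead, and asense was not raised on the UAS-Ase arrays. By the labels, the Ac flies carried sca-Gal4, tub-Gal80ts and UAS-Ac, and the Ase flies carried sca-Gal4, tub-Gal80ts and UAS-Ase. A control group of 3 arrays carried the same driver and Gal80ts with UAS-GFPnls, a nuclear green fluorescent protein, and is given beside the results as GFP. No group was without the driver, so all values come from flies that carry it. Crosses were kept at 18 °C and moved to 29 °C for 6 h, and notums were dissected at 16 h after puparium formation. Each array holds the RNA of a pool of 8 to 12 notums, and the labels speak of 3 biological replicates per condition, of which the arrays of Ac replicates 1 and 2 were analysed here.

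Achaete and Asense are basic helix-loop-helix transcription factors encoded by genes of the achaete-scute complex on the X chromosome, which also holds scute and lethal of scute. They bind DNA as dimers with Daughterless. In normal development Achaete and Scute act in proneural clusters, groups of epidermal cells that are competent to become sensory organ precursors, whereas Asense appears later, in the precursor itself and in neuroblasts. The sca-Gal4 driver uses regulatory sequences of scabrous, a gene of proneural clusters and precursors, and Gal80ts holds Gal4 inactive at the low temperature.

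Levels are log2 signals, so a difference of 1 is a 2-fold change, and differences are given as Ac minus Ase. On Ase replicate 3, 60.3% of probe sets are listed at exactly 0 and were treated as missing, so that a dim gene rests on 2 arrays per group. Where only 2 Ase values are given, the missing one is Ase replicate 3. Over the 7284 probe sets measured on every array, 2 arrays of the same label differed by a median of 0.0838 to 0.115 (4 pairs). An Ac and an Ase array differed by 0.122 to 0.136 (6 pairs). The median difference over all probe sets was -0.06, and 36.1% of probe sets were higher in Ac. The tissue was checked by its markers. The 12 listed notum prepattern genes that matched a probe set, among them pannier, stripe and caupolican, were measured on all 5 arrays. Their levels went from 7.23 to 10.17, and 0 of the 12 were called different, against 0.801% of all genes. Another 6 listed genes, wingless among them, were not matched to a probe set. The Ac and Ase flies differ in their UAS line as well as in the factor, and the effects of both cannot be told apart.

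The genes of the factors were examined first. The achaete probe set read 6.74 and 6.87 on the Ac arrays, 7.10, 6.98 and 7.07 on the Ase arrays, and 7.27, 7.03 and 6.63 on the GFP arrays. The asense probe set read 5.18 and 5.49 in Ac, 5.45 and 5.68 in Ase, and 5.58, 5.23 and 5.15 in GFP. Neither probe set was high on the arrays of its own transgene, so neither checks the labels, and which factor was raised on the arrays labelled UAS-Ac is not settled by them. Every direction given as higher or lower in Ac therefore rests on the label. Whether the probes lie in the transcribed part of the transgenes was not tested.

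Scute was the exception among the genes of the complex. It read 10.37 and 10.42 on the Ac arrays against 7.05, 7.17 and 7.43 on the Ase arrays, and 7.28, 7.04 and 6.95 in GFP. Both Ac arrays lay above all Ase and GFP arrays, and the Ase and GFP ranges overlapped. The 3 arrays labelled Ac+Sens, which by their label carry UAS-Ac and UAS-Sens, read 10.17, 10.05 and 10.77 for scute and 6.56, 6.87 and 7.48 for achaete. The difference of 3.18 (SE 0.72) had an adjusted p of 0.0543 in limma and was not called. It was called with an adjusted p of 1.86e-06 when the array labelled Sens replicate 1, which reads 10.63 for scute, was left out of the shared estimate of spread, and with 0.00052 when only the 5 arrays were fitted. Over the 15 alternative settings its adjusted p went from 1.86e-06 to 0.255, and 5 of them called it. Lethal of scute was lower in Ac by a measured difference of -0.38 (adjusted p 0.328). Daughterless, the common dimer partner, differed by -0.04 with a 95% interval from -0.33 to 0.25, and Extramacrochaetae, which sequesters proneural proteins, by -0.26 with an interval from -0.51 to -0.02 and an adjusted p of 0.392. Senseless, a zinc finger factor of precursors, differed by -0.42 (interval -1.86 to 1.02).

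Across the array, 142 of 18769 probe sets were called at an adjusted p under 0.05 in limma, which is 0.757%. Of these, 44 (0.234%) were higher in Ac and 98 (0.522%) were lower in Ac than in Ase. At an unadjusted p under 0.05 there were 2169. The Ac and Ase arrays did not overlap in any of the 142, against 40.9% of all probe sets. The 142 were picked on these same values, so the lack of overlap is no separate support for them. The median size of a called difference was 0.89 and sizes went from 0.46 to 4.30. A difference over 1 was reached by 20 probe sets higher in Ac and 33 lower in Ac. The count depended on single arrays: it was 42 without Ac replicate 2, 47 without Ase replicate 1 and 55 without Ase replicate 2. Without Ac replicate 1 it was 168 and without Ase replicate 3 it was 100. All 5 omissions kept 32 of the 142 calls, 15 higher and 17 lower in Ac. The share higher in Ac, 31.0%, moved to 57.3% after quantile normalization (86 higher and 64 lower) and to 52.1% after a trend with gene length was removed (75 and 69).

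**Figure D1:**
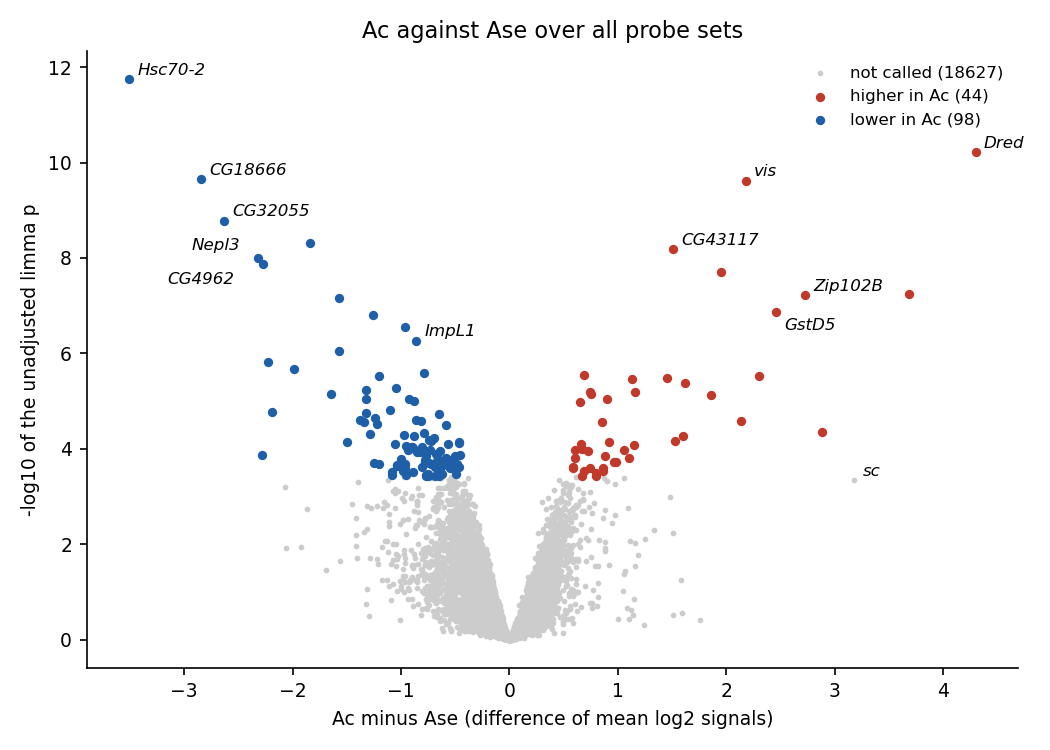
Difference between Ac and Ase (horizontal, log2) against -log10 of the unadjusted limma p (vertical) for each of 18769 probe sets. Red points are the 44 called higher in Ac, blue points the 98 called lower in Ac, and grey points were not called, with scute at 3.18 just below the called points.

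The called probe sets name 106 genes singly, and with 1 probe set per gene 96 of 11982 genes were called (0.801%), 29 higher (0.242%) and 67 lower (0.559%) in Ac. The control level was nearer to Ac than to Ase in 78 of the 98 probe sets lower in Ac (79.6%) and in 23 of the 44 higher in Ac (52.3%), against 61.8% of all probe sets. Against GFP, 1.24% of all probe sets were called in Ase (1% higher and 0.24% lower) and 0.218% in Ac (0.155% higher and 0.0639% lower). By these tests, 59 of the 98 probe sets lower in Ac were called in Ase and 7 in Ac. Of the 44 higher in Ac, 18 were called against GFP in Ase and 10 in Ac. Both sets of tests share the GFP arrays. The 98 and the 44 were also picked with the same Ac and Ase arrays that enter these tests and the distances to GFP. That choice alone can move these counts and shares away from those of all probe sets. Each comparison with GFP was adjusted on its own, with 233 probe sets called in Ase and 41 in Ac, so equal differences need not be called alike. Whether these probe sets moved in Ac or in Ase was therefore not tested by the counts.

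Among the genes higher in Ac, Dred, vis and CG34199 were high on the Ac arrays and near the control in Ase. Dred read 9.33 and 9.43 in Ac, 4.79 and 5.37 in Ase, and 4.80, 4.58 and 5.08 in GFP. Its difference of 4.30 (SE 0.24, adjusted p 5.76e-07) was the largest of all. The Ase and GFP arrays of Dred overlapped. Dred was as high on the arrays labelled Sens as on the Ac arrays, at 9.26 ± 0.10 (SD, n = 3). Of these, Sens replicate 1 goes against its label and read 9.31. The homeobox gene vis, the TGIF-family paralogue vismay, read 4.96 and 4.85 in Ac against 2.80 and 2.66 in Ase and 3.15, 2.98 and 2.89 in GFP. Vis therefore differed by 2.18 (SE 0.11, adjusted p 1.12e-06). CG34199 read 5.85 and 5.75 in Ac against 3.54 and 3.46 in Ase, a difference of 2.30 (adjusted p 0.00228), with 3.88, 3.71 and 3.64 in GFP. In these 3 genes both Ac arrays lay above every Ase and GFP array. CG31436, which read 5.10 and 5.37 in Ac and 3.97 and 3.60 in Ase, also stood above its GFP arrays at 4.08, 4.29 and 3.99.

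In a second group of genes higher in Ac, the Ase arrays lay below the control. Zip102B, a member of the ZIP family of zinc transporters on chromosome 4, read 4.09, 4.16 and 4.04 in Ase, 6.97 and 6.67 in Ac, and 7.81, 7.69 and 7.81 in GFP. Its difference was 2.73 (SE 0.28, adjusted p 9.33e-05), and its Ac arrays lay between the Ase and GFP arrays. GstD5, a glutathione S-transferase of the detoxification list, read 4.04, 4.02 and 3.84 in Ase and 6.21 and 6.64 in Ac, with 5.56, 6.28 and 5.54 in GFP. GstD5 was 2.46 higher in Ac (SE 0.27, adjusted p 0.000179), and its Ac and GFP arrays overlapped. CG43117 read 5.96 and 5.86 in Ac and 5.89, 5.81 and 5.90 in GFP against 4.38 and 4.41 in Ase (difference 1.51, adjusted p 1.77e-05). In CG43117 the Ac arrays sat at the control level and the Ase arrays below it. Dtd read 6.47 and 6.31 in Ac, 6.32, 6.45 and 6.52 in GFP, and 5.13, 5.45 and 5.11 in Ase. Dtd differed by 1.16 (adjusted p 0.00395). Cbl, the E3 ubiquitin ligase that downregulates the EGF receptor, read 9.0 and 8.95 in Ac, 8.92, 8.89 and 8.91 in GFP and 8.26, 8.42 and 8.18 in Ase, and was named after its values were seen. Its difference of 0.69 (adjusted p 0.00228) was called in 14 of 15 alternatives, and its dimmer probe set, at -0.94, was not called (adjusted p 0.517).

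Cpr5C and Cpr47Ec, which encode chitin-binding proteins of the cuticle, were higher in Ac. Cpr5C read 6.24 and 5.30 in Ac, 3.91 on both Ase arrays and 4.61, 4.37 and 4.15 in GFP, a difference of 1.86 (adjusted p 0.00415). Cpr47Ec read 9.0 and 8.85 in Ac against 7.19, 7.41 and 7.57 in Ase, and its GFP arrays at 8.44, 8.50 and 8.12 lay between them. The difference of 1.53 had an adjusted p of 0.0208, which rose to between 0.0713 and 0.141 without either Ac array or without Ase replicate 1 or 2. Cpr5C and Cpr47Ec were the 2 called of 66 measured Cpr genes, a family counted after its members were seen, beside 0.801% of all genes. Of the 66 differences 37 were negative, the lowest at -1.31, and the median was -0.05. The other genes among the 15 with the largest increases were Drsl6, of the drosomycin-like family of antifungal peptides (1.60), CG11594 (1.15), CG7296 (1.06), CG34034 (0.96) and CG42694 (0.90). Each of these 5 lost its call when at least 1 of the 5 arrays was left out. The adjusted p of Drsl6 was 0.153 without Ac replicate 2, 0.134 without Ase replicate 1 and 0.098 without Ase replicate 2. CG11594 and CG34034 lost their calls without either Ac array or without Ase replicate 1 or 2, with adjusted p from 0.0683 to 0.19 and from 0.0607 to 0.238. CG7296 lost it without Ac replicate 1 (0.0817), Ase replicate 1 (0.107) and Ase replicate 2 (0.202), and CG42694 without Ase replicate 2 (0.0558). With only the 5 arrays fitted, the adjusted p of Cpr5C was 0.111.

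**Figure D2:**
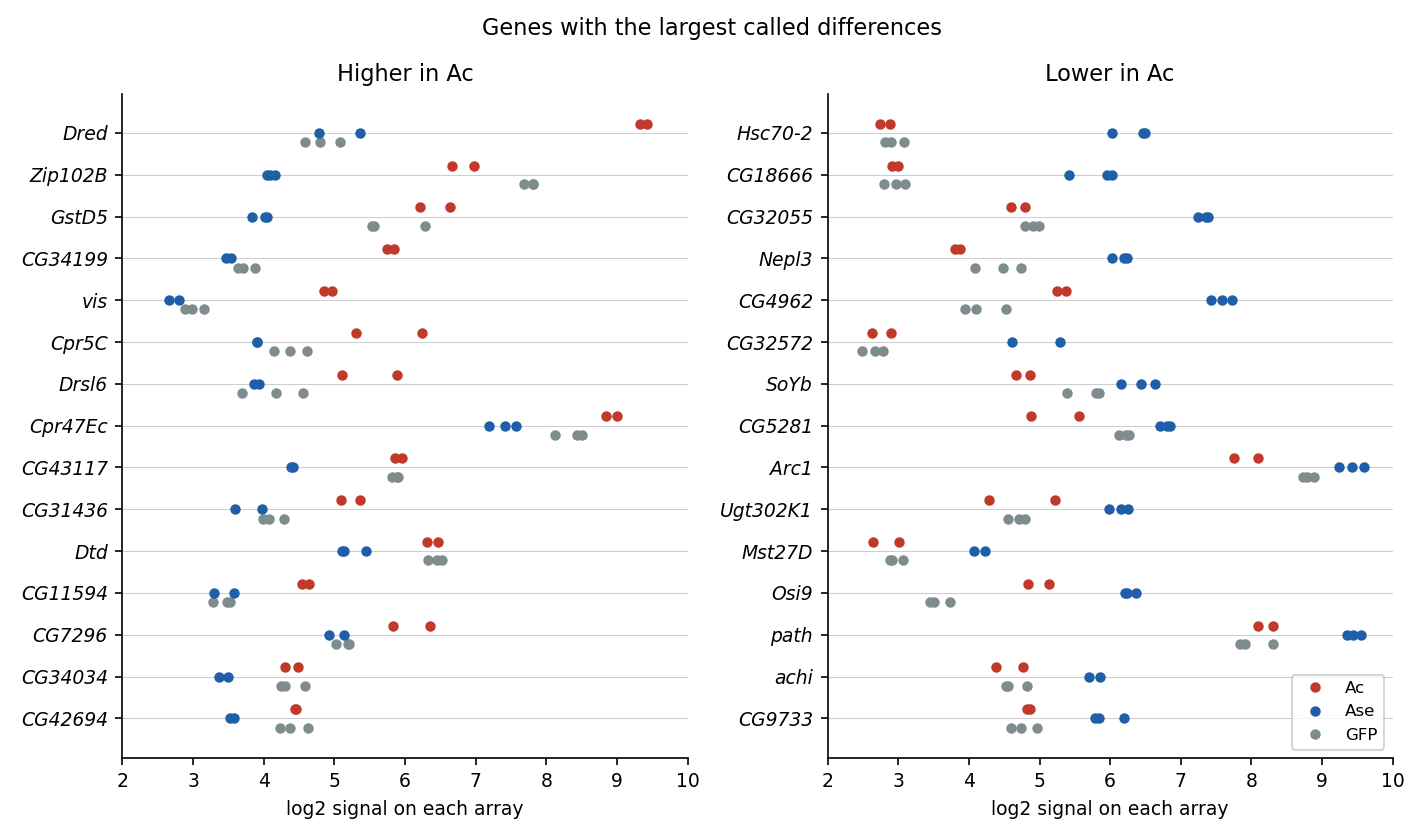
log2 signal on each array (horizontal) for the 15 genes with the largest called differences in each direction, with Ac arrays in red, Ase arrays in blue and GFP arrays in grey. In Hsc70-2, CG18666 and CG32055 the red and grey points lie together and the blue points lie apart, whereas in Dred, vis and CG34199 the blue and grey points lie together.

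Among the genes lower in Ac, the largest differences were in genes that stood high in Ase alone of the 3 groups. On arrays labelled m3, outside these groups, CG32055 and CG32572 were high too (means of 7.29 and 5.07). Hsc70-2 and CG18666 were low there (means of 2.69 and 2.89). Hsc70-2, a member of the 70-kDa heat shock cognate family of chaperones, read 2.89 and 2.74 in Ac, 2.90, 3.08 and 2.81 in GFP, and 6.49, 6.46 and 6.03 in Ase. Its difference of -3.51 (SE 0.13) had the smallest adjusted p of all, 3.3e-08. CG18666 read 2.91 and 3.0 in Ac and 6.03, 5.96 and 5.42 in Ase, a difference of -2.85 (SE 0.16, adjusted p 1.12e-06). The GFP arrays of CG18666, at 2.80, 3.09 and 2.97, enclosed the Ac arrays. CG32055 read 4.79 and 4.60 in Ac, 4.99, 4.91 and 4.80 in GFP and 7.36, 7.24 and 7.39 in Ase (difference -2.63, adjusted p 6.18e-06). All 3 genes were called without each of the 5 arrays in turn. CG32572 had the same order, at 2.63 and 2.90 in Ac, 2.67, 2.79 and 2.49 in GFP and 5.29 and 4.61 in Ase, with a difference of -2.19 and an adjusted p of 0.00763 that rose to 0.0972 without Ase replicate 1 and 0.0549 without Ac replicate 2.

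CG4962 and Osi9 stood above the control in both Ac and Ase, and higher in Ase. CG4962 read 5.37 and 5.25 in Ac, 7.43, 7.58 and 7.73 in Ase, and 4.52, 4.10 and 3.95 in GFP. It was 1.12 above GFP in Ac (adjusted p 0.0258) and 3.39 above GFP in Ase (adjusted p 1.02e-07). Its Ac minus Ase difference was -2.27 (SE 0.18, adjusted p 2.72e-05). Osi9, of the Osiris family of insect transmembrane proteins, read 4.83 and 5.13 in Ac, 6.36, 6.24 and 6.21 in Ase, and 3.45, 3.73 and 3.51 in GFP. In both genes the 3 groups did not overlap and lay in the order GFP, Ac, Ase. The Osi9 difference of -1.29 (adjusted p 0.0164) lost its call without either Ac array or without Ase replicate 1 or 2, with adjusted p from 0.0626 to 0.0858, and 1 of 24 measured Osiris genes was called, beside 0.801% of all genes.

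In several genes Ac and Ase lay on opposite sides of the control. The same held for 105 of the 142 called probe sets, so this order is not particular to these genes. Nepl3, a neprilysin-like metalloendopeptidase gene, read 3.80 and 3.87 in Ac, 4.49, 4.08 and 4.74 in GFP and 6.19, 6.24 and 6.03 in Ase (difference -2.32, adjusted p 2.39e-05). SoYb, whose product acts in the piRNA pathway of the gonad, read 4.66 and 4.87 in Ac, 5.84, 5.39 and 5.80 in GFP and 6.64, 6.44 and 6.16 in Ase. SoYb differed by -1.65 (adjusted p 0.00412), and CG5281 by -1.57 (adjusted p 0.000931) with 4.88 and 5.56 in Ac against 6.81, 6.85 and 6.71 in Ase. The same order held for the paired genes Arc1 and Arc2, relatives of the Gag proteins of retrotransposons. Arc1 read 7.75 and 8.09 in Ac, 8.73, 8.88 and 8.79 in GFP and 9.59, 9.43 and 9.24 in Ase. Its difference of -1.50 had an adjusted p of 0.0208 that rose to between 0.0767 and 0.107 without either Ac array or without Ase replicate 1 or 2. A dimmer probe set of Arc1 was called too, at -1.34 (adjusted p 0.0105). Arc2, its neighbour on 2R, read 5.14 and 5.12 in Ac, 5.77, 5.91 and 5.67 in GFP and 6.08, 6.04 and 6.15 in Ase, and its difference of -0.96 (SE 0.10, adjusted p 0.000332) was called without each of the 5 arrays. Arc2 was named after its values were seen. In the limma tests against GFP, Nepl3 was called in Ase (adjusted p 9.27e-05) and Arc2 in Ac (adjusted p 0.0192). The other tests of Nepl3, SoYb, CG5281, Arc1 and Arc2 against GFP were not called (adjusted p from 0.0684 to 0.552).

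The remaining genes with large decreases were Ugt302K1, Mst27D, path, achi and CG9733. Ugt302K1, a UDP-glycosyltransferase gene, read 4.28 and 5.22 in Ac against 6.16, 6.25 and 5.98 in Ase. Its difference of -1.38 (adjusted p 0.0102) became -0.90 without Ac replicate 1, and without Ase replicate 1 or 2 its adjusted p was 0.0546 or 0.0542. With only the 5 arrays fitted it was 0.127. The pathetic gene, path, which encodes an amino acid transporter, read 8.09 and 8.31 in Ac, 9.35, 9.55 and 9.44 in Ase and 7.91, 7.84 and 8.30 in GFP. Path differed by -1.25 (adjusted p 0.0358) and was not called without any one of the 5 arrays (adjusted p from 0.081 to 0.18). Mst27D (-1.32) lost its call without Ase replicate 1 (adjusted p 0.0678), and CG9733 (-1.10) without Ac replicate 2 (adjusted p 0.0974). The homeobox gene achi, achintya, read 4.77 and 4.39 in Ac, 5.70 and 5.86 in Ase and 4.53, 4.55 and 4.82 in GFP, a difference of -1.20 (adjusted p 0.00228, or 0.0645 with only the 5 arrays fitted). Achi lies next to vis on 2R, and the neighbours moved in opposite directions. Achi and vis are close paralogues, and cross-hybridisation between their probe sets was not tested.

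Several called genes have more than 1 probe set, and in most of them not all were called. Of 23 such genes, 2 had every probe set called, Arc1 and CG13737. CG13737 read 6.26 and 6.55 in Ac against 7.36, 7.36 and 7.66 in Ase on its brighter probe set (difference -1.05, adjusted p 0.00362). In unc-13-4A, a Munc13-family gene, one probe set read 6.43 and 6.56 in Ac against 2.73 and 2.89 in Ase and 3.03, 2.86 and 3.12 in GFP. Its level on the arrays labelled Sens, 6.50 ± 0.11 (SD, n = 3, with Sens replicate 1, which goes against its label, at 6.46), was that of the Ac arrays. That probe set differed by 3.69 (adjusted p 9.33e-05) and another by 0.85 (adjusted p 0.0105), while the probe set with the highest mean differed by 0.15 (adjusted p 0.883). In gkt, the tyrosyl-DNA phosphodiesterase gene glaikit, one probe set read 4.57 and 4.96 in Ac against 6.46, 6.69 and 6.68 in Ase, a difference of -1.84 (adjusted p 1.49e-05). The brightest gkt probe set differed by -0.18 (adjusted p 0.599). For the polarity gene scrib 2 probe sets were called, at -1.32 (adjusted p 0.00374) and -0.78 (adjusted p 0.0339), and its brightest was at -0.39 (adjusted p 0.705). These genes were named after their values were seen, and the parts of the transcripts that the probe sets cover were not compared.

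Sensory organ precursor genes, which act after the proneural factors in the same fate, were then compared. Of 28 measured precursor genes 1 was called, against 0.801% of all genes, and 5 of 28 were higher in Ac against 36.1% of all probe sets. Another 6 listed genes, scabrous among them, were not matched to a probe set and were not tested. The median difference of the list was -0.15, beside -0.06 over all named genes. After quantile normalization 11 of 28 were higher in Ac, against 51.9% of all probe sets, and after removal of the length trend 10 of 28, against 49.2%. The called gene was qua, the actin-binding villin-like quail, which read 4.18 and 4.2 in Ac, 4.94 and 4.82 in Ase and 5.11, 4.96 and 5.0 in GFP. Here the Ac arrays were the low ones and Ase was near the control. The difference of -0.69 had an adjusted p of 0.039, which over 13 alternatives went from 0.00123 to 0.25, and 4 of the 13 called it. Leaving out Ac replicate 1 or 2 or Ase replicate 1 or 2 ended the call (adjusted p from 0.0921 to 0.25), as did both changes of scaling (0.0774 and 0.124).

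Phyllopod, phyl, the adaptor that targets the repressor Tramtrack for degradation in precursors, stood above the control in both Ac and Ase. It read 6.82 and 6.74 in Ac, 7.65, 7.54 and 7.64 in Ase, and 5.81, 5.21 and 5.25 in GFP. The 3 groups did not overlap. Phyl was 1.35 above GFP in Ac (adjusted p 0.0289) and 2.19 above GFP in Ase (adjusted p 2.96e-05). The Ac minus Ase difference, -0.83 with a 95% interval from -1.34 to -0.33, had an adjusted p of 0.139 and was not called. Its adjusted p over the alternatives went from 0.0116 to 0.431. The leucine-rich repeat gene ltl, larval translucida, read 6.41 and 6.86 in Ac, 7.90, 7.38 and 7.55 in Ase and 6.63, 6.37 and 6.87 in GFP, with a difference of -0.98 that was not called (adjusted p 0.139). Meru, which marks polarity in dividing precursors, read 6.96 and 6.90 in Ac and 7.43, 7.64 and 7.62 in Ase, with a difference of -0.63 and an adjusted p of 0.231. The ubiquitin ligase gene neur, which activates Notch ligands, read 8.98 and 9.39 in Ac and 9.22, 9.15 and 9.44 in Ase, and these overlapped.

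**Figure D3:**
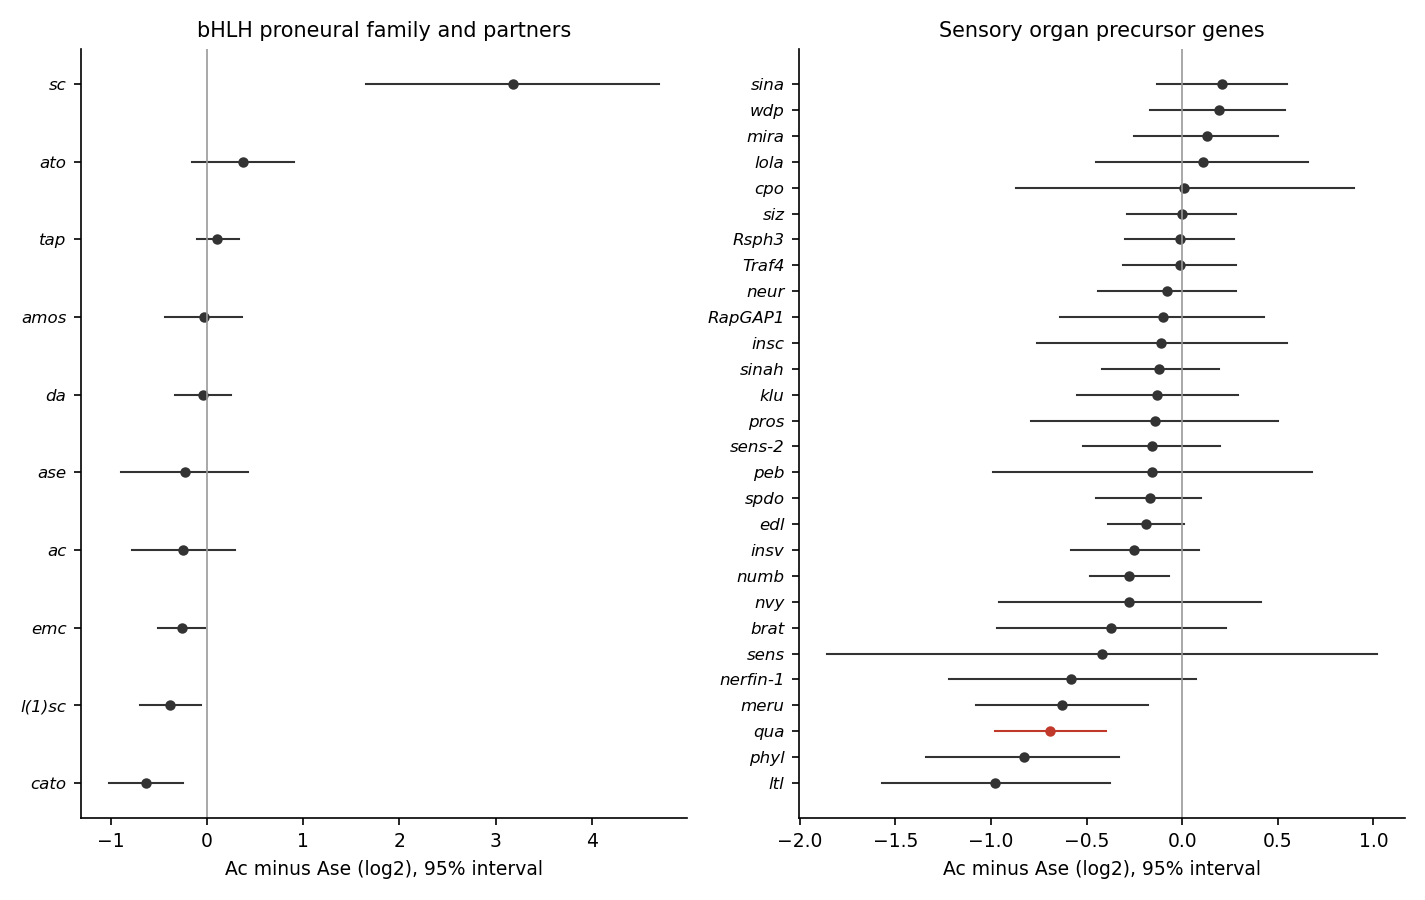
Ac minus Ase difference (log2, points) with its 95% interval (lines) for the 10 measured genes of the proneural bHLH list (left) and the 28 measured precursor genes (right). Only qua, in red, was called; scute has the largest difference, 3.18, and a wide interval from 1.65 to 4.70.

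The list of E(spl) and Bearded complex genes also holds gro, h, dpn and Hey. Of its 17 measured members 0 were called by limma, against 0.801% of all genes. Another 4 listed genes were not matched to a probe set. Of the 17, 2 had an unadjusted p under 0.05, beside 2169 of all 18769 probe sets. The E(spl)-HLH genes of the list encode bHLH repressors, and its Bearded family genes encode small inhibitors of Neuralized. All 17 differences were negative, from -0.74 to -0.03 with a median of -0.12, where 36.1% of all probe sets were positive. After quantile normalization 3 of the 17 were positive, against 51.9% of all probe sets. After removal of the length trend 1 was positive, against 49.2%. The lowest was E(spl)m5-HLH, which read 5.73 and 5.4 in Ac, 6.03, 6.56 and 6.33 in Ase, and 4.34, 4.08 and 4.16 in GFP, with an adjusted p of 0.677. E(spl)m4-BFM read 8.05 and 7.54 in Ac, 8.19, 8.48 and 8.72 in Ase and 6.83, 6.39 and 6.31 in GFP (difference -0.67, interval -1.98 to 0.64). In both genes all 5 arrays lay above the control, and the test against GFP was called for E(spl)m5-HLH in Ase (adjusted p 0.0467) and not in Ac (adjusted p 0.802). Among 17 measured Notch pathway genes 0 were called, against 0.801% of all genes. Another 8 listed genes, the genes Notch and Delta among them, were not matched to a probe set and were not tested. Of the 17, 1 had an unadjusted p under 0.05, which was numb, the Notch inhibitor segregated at precursor division, at -0.28 (adjusted p 0.246). For asymmetric division and polarity genes the count of called members was 0 of 20, and for neuroblast transcription factors 0 of 19. Each had 1 at an unadjusted p under 0.05. In lists of this size 0 called members is near the share over all genes.

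Of 26 gene lists in all, 22 had no called member and 4 had 1 each, against 0.801% of all genes. The called members were qua, ImpL1 among 18 ecdysone response genes, Hsc70-2 among 11 heat shock genes and GstD5 among 20 detoxification genes. Most lists also hold genes that were not matched to a probe set and were not tested, 12 for heat shock and 11 for the cell cycle. ImpL1, an ecdysone-inducible gene of imaginal discs, read 6.91 and 7.04 in Ac, 7.87, 7.83 and 7.79 in Ase and 7.14, 7.07 and 6.88 in GFP. Its difference of -0.86 (SE 0.11, adjusted p 0.000593) was called in all 15 alternatives. Markers of other cells that a notum preparation can hold gave 0 called genes, which in lists this short is near the 0.801% of all genes. The counts were 0 of 20 for muscle and myoblasts, 0 of 9 for glia, 0 of 11 for trachea, 0 of 18 for haemocytes and basement membrane, and 0 of 10 for fat body. At an unadjusted p under 0.05 they were 3, 1, 0, 1 and 1, beside 2169 of all 18769 probe sets. In bulk samples a change in the number of such cells and a change in their RNA cannot be told apart. The summed linear signal of the measured fat body markers went from 5964 to 7985 in Ac and from 6363 to 9553 in Ase, and that of the muscle markers from 13147 to 13168 and from 13422 to 14669. Their part in the called genes was not tested. The cell cycle list had 0 of 22 called, neuronal differentiation 0 of 22 and the sensory cilium list 0 of 24, with 1, 1 and 5 at an unadjusted p under 0.05.

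Some genes stood far from the control in both Ac and Ase and were not called between them. Cyp4p2, a cytochrome P450 gene, read 3.81 and 3.94 in Ac, 3.89, 3.97 and 3.97 in Ase, and 8.43, 8.50 and 8.46 in GFP. The Ac minus Ase difference was -0.07 with a 95% interval from -0.35 to 0.22. Hasp was at 4.26 on both Ac arrays and at 4.35, 4.82 and 4.64 in Ase against 8.07, 8.50 and 8.46 in GFP, with a difference of -0.35 (interval -0.77 to 0.07). In both genes the 5 arrays lay far below GFP. Ir76a, an ionotropic receptor gene, was the reverse, at 7.0 and 6.96 in Ac, 6.64, 6.65 and 6.40 in Ase and 4.38, 4.41 and 5.54 in GFP. Its Ac minus Ase difference was 0.42 (interval -0.36 to 1.19). Each of these intervals is the range of differences that the arrays allow, and the shared control arrays enter both comparisons with GFP.

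By their labels, other arrays of the series carried UAS-Ac together with UAS-Sens (Ac+Sens, 3 arrays) and UAS-Ase together with UAS-m3 (Ase+m3, 2 arrays), where m3 is the repressor E(spl)m3-HLH. On the Ase+m3 arrays E(spl)m3-HLH read 11.25 and 11.13, against 11.08, 11.03 and 11.03 in GFP, and asense read 5.05 and 4.44. These probe sets do not check the Ase+m3 label. The difference of Ac+Sens and Ase+m3 shares no array with Ac minus Ase, though it shares the estimate of spread, and it also differs by Sens and m3. It was chosen as a check after the data were seen. Of the 142 called probe sets 87 (61.3%) had the same direction in Ac+Sens minus Ase+m3, against 48% of all probe sets. The share was 61.2% for the 98 lower in Ac, near the 55.6% of all probe sets with a negative Ac minus Ase difference, and 61.4% for the 44 higher in Ac, against 34.7% of all with a positive one. Without Ase+m3 replicate 2 the shares were 64.3% against 62.1%, and 56.8% against 32.3%. In that comparison 1.23% of all probe sets were called, and 3.14% without Ase+m3 replicate 2. Of the 142, 26 were called in the same direction (18.3%, against 0.735% of all probe sets), 4 were called in the opposite direction and 112 were not called. Without Ase+m3 replicate 2, which stands apart from the other arrays, the count in the same direction was 25 (17.6%, against 1.84%).

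Dred, GstD5, CG18666, CG32055 and CG4962 had a difference of the same sign on those arrays. Dred differed there by 4.28 (8.80, 9.30 and 8.64 in Ac+Sens against 4.38 and 4.89 in Ase+m3, adjusted p 3.65e-07). GstD5 differed by 2.32, CG18666 by -2.76, CG32055 by -2.81 and CG4962 by -2.07, all called. Arrays of Sens or m3 alone showed some of these levels too. Dred had a mean of 9.26 with UAS-Sens alone and 5.30 with UAS-m3 alone, and GstD5 6.13 and 4.34, so in these 2 genes Sens and m3 alone lay in the same order. CG32055 was high with UAS-m3 alone, at a mean of 7.29, and at 4.97 with UAS-Sens alone. CG18666 (3.08 and 2.89) and CG4962 (3.58 and 3.67) were low with both. In CG32055, CG18666 and CG4962 the Sens mean rests on 2 arrays. Sens replicate 1, which goes against its label, is 1 of them and read 5.05, 3.16 and 3.69. It also enters the Sens means of Dred and GstD5. Other genes did not carry over. Hsc70-2 read 3.09 and 3.16 in Ac+Sens and 3.11 and 3.09 in Ase+m3, a difference of 0.02 where Ac minus Ase was -3.51. Vis read 2.59 and 2.49 in Ac+Sens and 2.77 and 2.68 in Ase+m3, so that the high vis level was seen on the 2 Ac arrays and not with Ac+Sens. Zip102B was reversed, at 4.29, 4.59 and 4.07 in Ac+Sens and 7.92 and 7.68 in Ase+m3 (difference -3.49, adjusted p 6.1e-06). Yellow-d, of the yellow family, was also reversed, from -0.74 (adjusted p 0.0205) to 1.0 (adjusted p 0.00183).

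**Figure D4:**
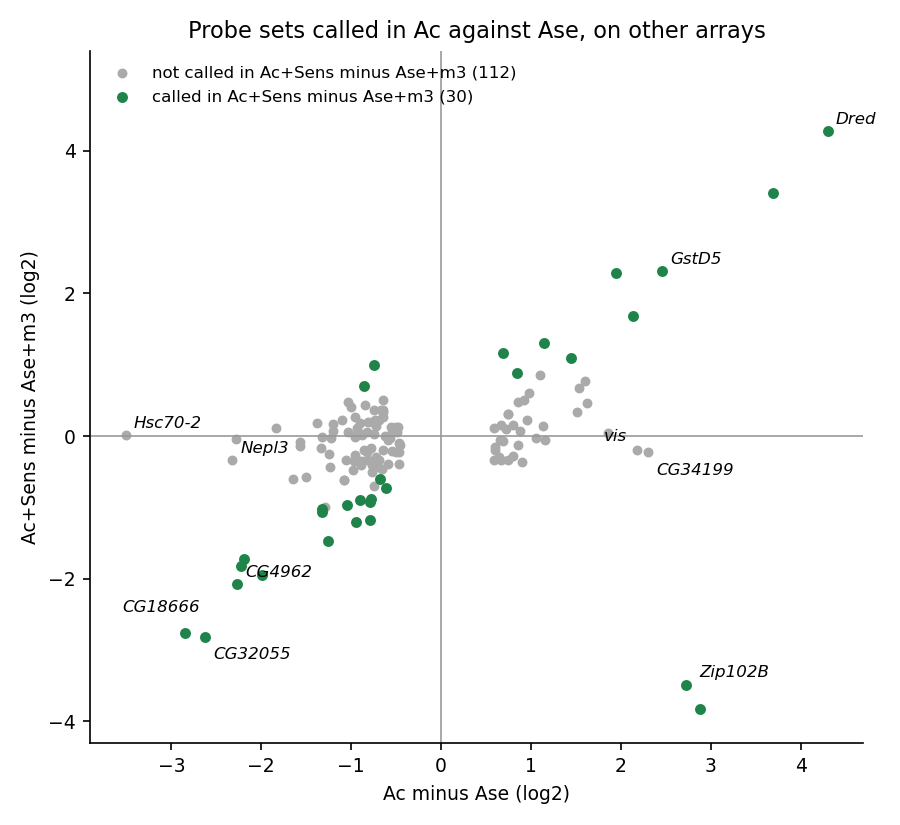
Each point is 1 of the 142 called probe sets, with Ac minus Ase on the horizontal axis and Ac+Sens minus Ase+m3 on the vertical axis (both log2 differences). Green points, 30 in all, were called in both, 26 of them with the same sign on both axes, and Zip102B lies at 2.73 and -3.49.

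Called genes were spread over the major chromosome arms, with 17 of 2203 genes on 2L, 22 of 2426 on 2R, 24 of 2344 on 3L and 27 of 2972 on 3R. On the X chromosome 5 of 1869 genes were called (0.268%), 4 higher in Ac and 1 lower, beside 0.801% over all genes. On chromosome 4 the single called gene of 65 was Zip102B. Among the called genes, 5 pairs lay within 3 genes of each other, of which Arc1 with Arc2 and SoYb with CG31875 shared a direction, and vis with achi, CG31633 with CG31636 and path with Or67a did not.

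**Figure D5:**
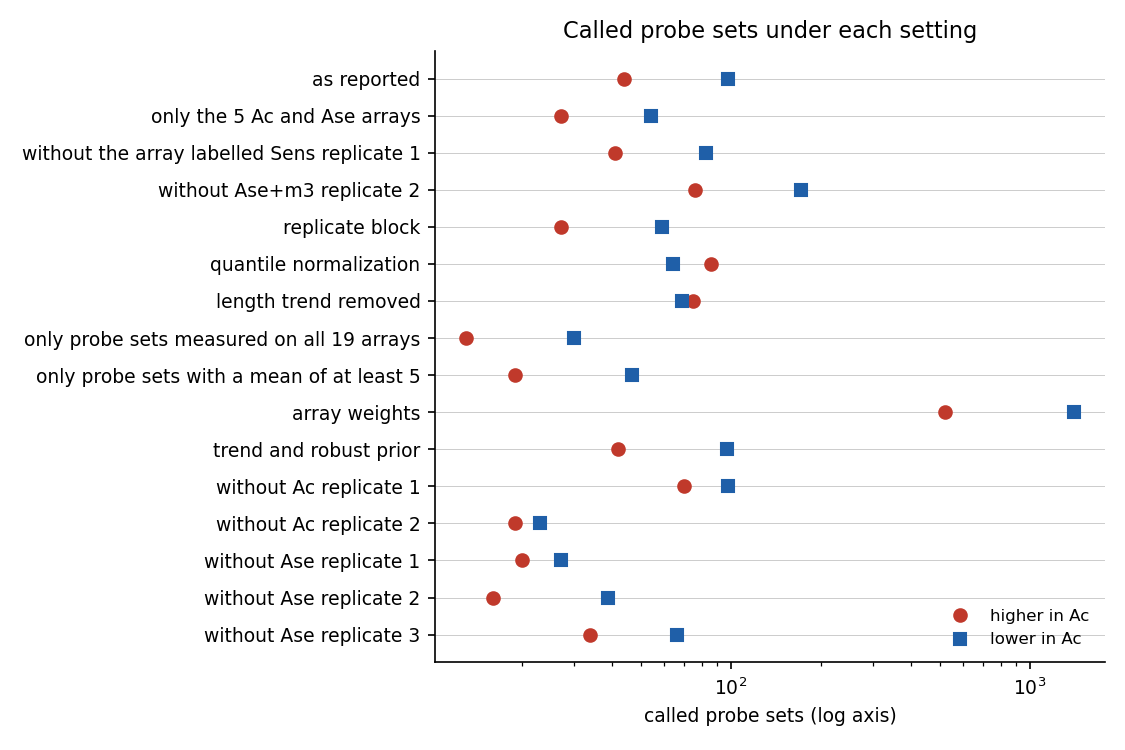
Number of called probe sets (horizontal, log axis) under the reported model and each of 15 alternatives (vertical), red circles for higher in Ac and blue squares for lower in Ac. The reported model gives 44 and 98, array weights give 523 and 1411, and leaving out Ac replicate 2 gives 19 and 23.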

How the data were processed

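Gene expression was measured on Affymetrix arrays of total RNA from pooled notums. The values deposited by the authors are log2 probe set signals made with RMA, per the submitters' processing notes; which version and which probe definitions were used is not stated there. The rule behind the exact zeros on 4 arrays (replicate 3 of Sens, Ase, m3 and Ac+Sens) is unknown, so they were treated as missing. Where Ase replicate 3 is at 0, the mean of Ase replicates 1 and 2 was at most 5.97. Neither scan batches nor detection calls were analysed here, and the number of arrays limits the precision.

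Groups were taken from the titles and genotypes. The test was limma (version 3.58.1, run under R 4.3.3) with 1 model of 19 arrays in 7 groups without covariates, which share 1 estimate of spread. P-values are two-sided and adjusted over all 18769 probe sets by the Benjamini-Hochberg method; an adjusted p under 0.05 is called. Intervals are 95%. The script was tested on simulated data. Alternatives were quantile normalization, removal of a loess trend with gene length, array weights, a trended robust prior, a replicate block, only the 5 arrays, filters on missing and dim probe sets, and leaving out single arrays.

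Gene names came from the platform annotation of the probe sets: 13647 name 1 gene, 402 several and 4720 none here. A gene is its probe set with the highest mean. Genes named are those of the factors, and up to 15 called genes per direction with the largest differences and no overlap. Also named are called members and up to 4 members with the smallest p of each list. A last group is up to 8 genes per direction far from GFP in both Ac and Ase. Others are marked. List members were also matched through RefSeq synonyms, and members without a match were left out. Members, lists and rules were chosen with earlier results of these data known.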

Additional observations from a re-analysis of the deposited data

Results flagged for a closer look

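Scute read 10.63 on the array labelled Sens replicate 1, an array outside the comparison, where the GFP arrays read 6.95 to 7.28 and the other Sens arrays 7.17 and 6.84. On that array Senseless read 7.38, while the other arrays labelled Sens read 10.76 and 10.75, so 1 library goes against its label. It enters the comparison of Ac and Ase through the shared estimate of spread only. Without it, 124 probe sets were called in place of 142, and 113 of the 142 remained.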

How the results depend on the processing

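None of the 142 calls reversed in any of the 15 alternatives; 28 were kept in every alternative that tested them and 11 in all 15. The count of called probe sets (142; 44 higher and 98 lower in Ac) was 81 (27 and 54) with only the 5 arrays, 248 (76 and 172) without Ase+m3 replicate 2, 43 (13 and 30) with only the 7284 probe sets measured on every array, 66 (19 and 47) with a mean of at least 5, and 1934 (523 and 1411) with array weights, which give both Ase+m3 arrays a weight of 0.1. The filters test fewer probe sets; the causes of the other shifts were not tested. Quantile normalization gave 150 (86 and 64) and removal of the length trend 144 (75 and 69). Leaving out each of the 5 arrays gave 42 to 168 in all, 16 to 70 higher and 23 to 98 lower. The array labelled Sens replicate 1 and the trended robust prior moved the counts little (41 and 83, and 42 and 97). The labels do not say that replicate numbers pair the arrays, and deviations of same-numbered Ac and Ase arrays correlated at -0.084 and -0.118 over 7284 probe sets; with 2 Ac arrays these deviations are mirror images, so the check is weak. The zeros fall on replicate 3 of Sens, Ase, m3 and Ac+Sens, so the zeros go with the replicate number. With the replicate block 86 were called (27 higher and 59 lower). For the genes picked by the naming rule, and not for all probe sets, each alternative was set beside the reported model. Over these genes and alternatives, 1871 results kept their side of the threshold, 58 lost their call and 38 gained one. Of all 142 calls, 58 remained with only the 5 arrays fitted. With 2 Ac arrays and, for dim genes, 2 Ase arrays, small differences are the least well measured.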

Other observations

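Further called genes were picked after their values were seen and stand for no gene group. Treh, the trehalase gene, read 8.38 and 8.24 in Ac against 8.65, 8.84 and 8.82 in Ase (difference -0.46, adjusted p 0.0286), and Acadvl, a very-long-chain acyl-CoA dehydrogenase, read 10.12 and 10.14 against 10.60, 10.66 and 10.52 (-0.47, adjusted p 0.0208). The lipophorin receptor gene LpR1 read 6.28 and 6.20 in Ac against 7.06, 7.06 and 7.32 in Ase (-0.90, adjusted p 0.0233), and its second probe set, at -0.13, was not called. Adk3, an adenylate kinase, read 6.49 and 6.76 against 7.46, 7.60 and 7.66 (-0.95, adjusted p 0.0227). Each of these 4 genes was nearer to its GFP mean in Ac than in Ase. Hsdl2 went the other way, with 10.63 and 10.66 in Ac against 10.10, 10.14 and 9.91 in Ase (0.59, adjusted p 0.0386), and its GFP mean was 10.70. Treh was called in 8, Acadvl in 9, LpR1 in 10, Adk3 in 9 and Hsdl2 in 8 of the 15 alternatives, and none of the 5 kept its call without each of the 5 arrays in turn.

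Of the called probe sets 26 name no gene here and 6 name several. A bright probe set among those that name none read 10.08 and 9.88 in Ac, 12.26, 12.08 and 12.30 in Ase and 11.53, 12.44 and 11.66 in GFP, a difference of -2.23 (adjusted p 0.00152) that was called in all 15 alternatives. GILT3, of the thiol reductase family GILT, had the same order, with 6.07 and 5.99 in Ac, 6.85, 6.88 and 6.73 in Ase and a GFP mean of 6.63 (-0.79, adjusted p 0.00227), and was also called in all 15.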
